A study of Rattus norvegicus with 8 samples.

Results

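The aquaporins were followed in alveolar type II (ATII) cells of the rat, which line the air sacs and make surfactant, with and without a constitutively active HIF1a, the subunit of a hypoxia-inducible transcription factor that oxygen normally has degraded. The 8 genes were Aqp1, Aqp3, Aqp4, Aqp5, Aqp7, Aqp8, Aqp9 and Aqp11, out of 18166 genes with a probe set of their own on the array. They were taken by gene symbol alone. Each had 1 probe set that the platform annotation ties to a single symbol, so none had to be chosen among several.

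Total RNA was measured on 8 Affymetrix arrays, 4 of wells given the adenovirus AdGFP (green fluorescent protein, the control) and 4 of wells given AdHIF1a (the active mutant of HIF1a). The cells were freshly isolated from 4 male Sprague Dawley rats, whose age the labels do not give, and the wells are paired, 1 per virus from each rat, with a separate extraction date for each rat. Wells of both viruses were kept with virus for 3 h (multiplicity of infection 20) in medium holding 2% fetal bovine serum. They were plated on a gel that was 80% collagen from rat tail and 20% Matrigel, with 5% serum from rat, and were harvested for RNA after a further 24 h. There were no untransduced wells and no other time point, so both groups share the virus and the culture. Values are log2 signals as deposited, and a difference is the AdHIF1a value minus the AdGFP value of the same rat in log2 units, averaged over rats and given ± its standard error (SE) from limma with the rat as a block. A gene is said to rise or fall where its Benjamini-Hochberg adjusted p over the 18166 genes is under 0.05.

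Aquaporins are channels of the cell membrane that let water pass along an osmotic gradient. Aqp1, Aqp4, Aqp5 and Aqp8 are mainly water channels. Aqp3, Aqp7 and Aqp9 also pass glycerol and are called aquaglyceroporins, and Aqp11 is a distant member found on intracellular membranes. In the lung Aqp5 lies on the air-facing membrane of alveolar type I cells, the thin cells of gas exchange into which ATII cells can develop, Aqp1 lies in the capillary endothelium, and Aqp3 and Aqp4 lie on the basal side of airway epithelium. The water follows salt that the epithelium moves through sodium and chloride channels.

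Aqp5, Aqp4 and Aqp3 fell in the wells labelled AdHIF1a, by 5.63-fold, 3.60-fold and 2.75-fold. Aqp1 gave a signal above the level of olfactory receptor genes in all wells and was not called (-0.06 ± 0.16). Aqp7, Aqp8, Aqp9 and Aqp11 lay near the floor of the array in all wells, and their differences were within 0.14 of 0 on the log2 scale. Of the 8 genes, 3 were therefore lower, 0 higher and 5 not called in limma, and the counts were also 3 and 0 at an unadjusted p under 0.05, which 15.4% of all genes passed as lower and 12.2% as higher. Over all genes 7.77% were lower, 5.68% higher and 13.4% called in either direction. The median difference was -0.10 over the 8 aquaporins and -0.01 over all genes. The groups did not overlap for 2 of the 8 genes, Aqp4 and Aqp5, against 22.5% of all genes.

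**Figure D1:**
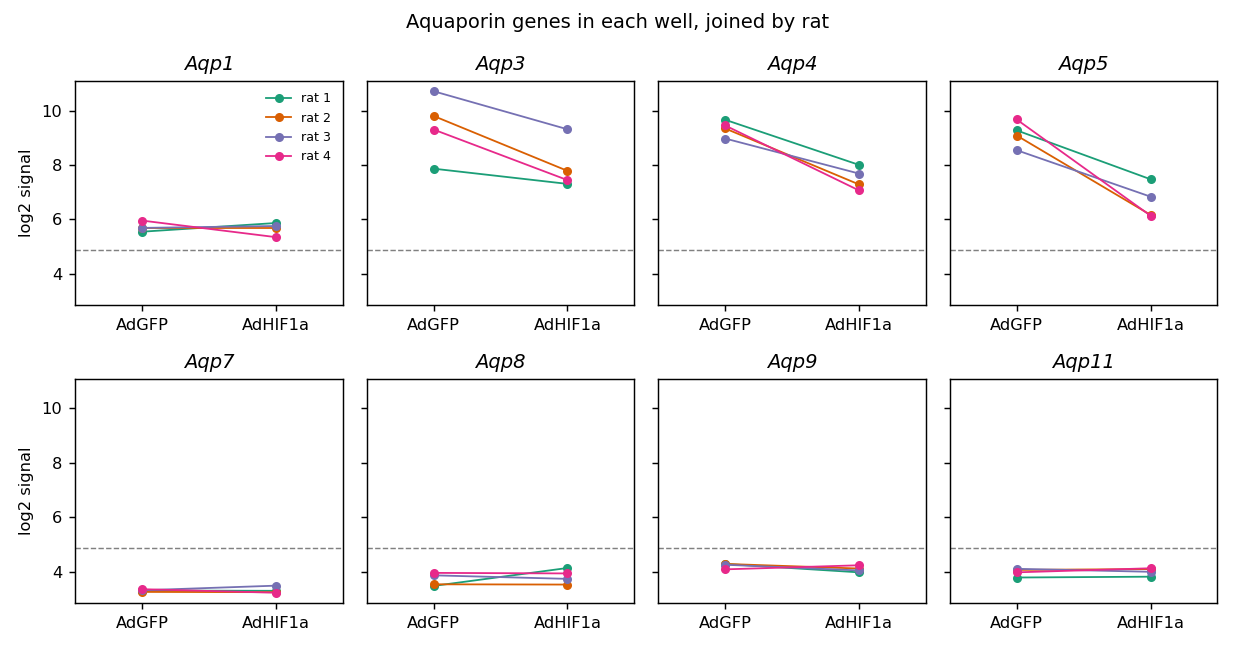
Each panel shows the log2 signal of 1 aquaporin gene (vertical axis) in the 4 AdGFP and the 4 AdHIF1a wells, with a line joining the 2 wells of a rat; the dashed line is the 95th percentile of olfactory receptor genes, 4.86. Aqp3, Aqp4 and Aqp5 go down in each rat, while Aqp7, Aqp8, Aqp9 and Aqp11 stay below the dashed line in all wells.

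The files hold no detection calls, so the level of genes that lung epithelium is not known to use served as a guide to the floor. The 1184 measured olfactory receptor genes had a median signal of 3.04 and a 95th percentile of 4.86 over the 8 arrays. This reference was chosen after the values were seen. The array medians lay between 5.00 and 5.20. A signal reflects both a transcript's amount and how well its probes bind, so signals of different aquaporins are not compared as amounts. The native probe set of Hif1a gave means of 11.12 and 10.64 in the AdGFP and AdHIF1a wells and does not check the labels, since the sources used state no species for the transgene and no probe sequences. The carbonic anhydrase gene Car12, a known HIF target, had means of 4.73 and 10.68.

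The bases before the start of the genes that fell are shown first, with those of Aqp8, because the question is about a transcription factor and these windows differ in whether they hold its core letters. They are the 250 bases upstream of each annotated start, 5′ to 3′ on the gene's strand, from RefSeq on build GRCr8, and capitals mark ACGTG and GCGTG, the letters at the centre of the hypoxia response element, on either strand. Aqp4 has a pair of annotated starts and both windows are given. Aqp5 lies on chr7:132601278-132601527 (plus strand), Aqp3 on chr5:61040684-61040933 (minus), Aqp4 on chr18:6798843-6799092 and chr18:6797927-6798176 (both minus) and Aqp8 on chr1:187424193-187424442 (plus).
Aqp5: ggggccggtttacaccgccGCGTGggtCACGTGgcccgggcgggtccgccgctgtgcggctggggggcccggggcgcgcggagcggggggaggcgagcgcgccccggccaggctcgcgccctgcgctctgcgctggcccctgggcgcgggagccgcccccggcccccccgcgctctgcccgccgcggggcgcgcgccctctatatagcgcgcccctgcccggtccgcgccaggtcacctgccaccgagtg
Aqp3: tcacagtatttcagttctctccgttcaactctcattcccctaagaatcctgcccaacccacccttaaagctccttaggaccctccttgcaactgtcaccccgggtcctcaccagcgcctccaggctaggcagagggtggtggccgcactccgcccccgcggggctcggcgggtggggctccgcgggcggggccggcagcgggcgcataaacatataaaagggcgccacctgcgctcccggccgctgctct
Aqp4, first start: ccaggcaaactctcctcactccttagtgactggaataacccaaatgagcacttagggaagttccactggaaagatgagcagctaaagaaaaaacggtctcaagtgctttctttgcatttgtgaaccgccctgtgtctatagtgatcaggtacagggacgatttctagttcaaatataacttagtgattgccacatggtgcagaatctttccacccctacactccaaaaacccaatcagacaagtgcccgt
Aqp4, other start: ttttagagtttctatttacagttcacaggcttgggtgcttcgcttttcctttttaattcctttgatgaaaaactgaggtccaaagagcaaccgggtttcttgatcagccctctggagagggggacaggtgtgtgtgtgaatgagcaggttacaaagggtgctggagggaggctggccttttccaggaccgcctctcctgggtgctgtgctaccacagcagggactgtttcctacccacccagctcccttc
Aqp8: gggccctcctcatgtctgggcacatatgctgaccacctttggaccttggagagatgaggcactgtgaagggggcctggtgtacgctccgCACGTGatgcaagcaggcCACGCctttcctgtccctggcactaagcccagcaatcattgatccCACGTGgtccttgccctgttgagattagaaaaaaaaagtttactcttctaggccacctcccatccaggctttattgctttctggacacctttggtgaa

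The Aqp5 window held 2 matches to ACGTG, which are the 2 strands of 1 palindrome CACGTG, and 1 match to GCGTG. The first letters of these matches lay 222 to 231 bases before the start. The windows of Aqp3 and Aqp4 held neither word. The Aqp8 window held 4 matches to ACGTG, on both strands of 2 copies of CACGTG, and 1 match to GCGTG. Of 33469 windows of this length over the rat genes, 36.7% held ACGTG or GCGTG on either strand, 16.6% held ACGTG and 5.6% held CACGTG, which is also the E-box palindrome. Of the other members with an entry, the window of Aqp11 held 2 matches to GCGTG, and those of Aqp1 and Aqp9 held neither word. Aqp7 is named only. The Aqp5 window was also rich in G and C (83.2%, with 41 CpG dinucleotides, against a median of 51.2% and 5 over all windows), while the Aqp4 windows had 44.8% and 51.6%. The word TATAAA stood in the windows of Aqp3 and Aqp1, as in 12.9% of all windows. These matches describe letters and not binding.

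Aqp5 had the largest difference of the 8 genes. Rats 1 to 4 gave signals of 9.28, 9.09, 8.55 and 9.68 with AdGFP, and of 7.48, 6.17, 6.84 and 6.14 with AdHIF1a (probe set 17832223). The lowest AdGFP well stood 1.07 above the highest AdHIF1a well, so the groups did not overlap. The means were 9.15 ± 0.47 and 6.66 ± 0.64 (SD, 4 rats). The difference of -2.49 ± 0.34 corresponds to a 5.63-fold lower signal (95% interval 3.15 to 10.0, limma adjusted p = 0.0108). Its size varied between rats, from 3.48-fold in rat 1 and 3.27-fold in rat 3 to 7.57-fold in rat 2 and 11.6-fold in rat 4. The rats with the larger falls were those that ended lowest, at 6.17 and 6.14. All AdHIF1a wells still lay above the olfactory receptor level of 4.86, so the signal was reduced and not brought to the floor. Without rat 2 the difference was -2.35 and no longer passed the threshold (limma adjusted p = 0.0607), and it passed without rat 1, 3 or 4 (0.0249, 0.0302 and 0.0380).

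Aqp4, the main water channel of brain astrocytes, fell as well. Its signal with AdGFP was 9.67, 9.35, 8.98 and 9.46 in rats 1 to 4, and with AdHIF1a it was 8.01, 7.29, 7.69 and 7.07 (probe set 17724939). All AdHIF1a wells were below all AdGFP wells. The means were 9.37 ± 0.29 and 7.52 ± 0.42 (SD), and the difference of -1.85 ± 0.19 is 3.60-fold (2.59 to 5.02, limma adjusted p = 0.00562). The differences in rats 1 to 4 were -1.66, -2.06, -1.29 and -2.39. As for Aqp5, rat 4 had the largest fall, followed by rats 2, 1 and 3. Aqp4 was called in all 15 alternative fits in which it was tested, at adjusted p from 0.000603 to 0.0380.

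Aqp3, the aquaglyceroporin of basal cells in airway and skin, differed more between rats than between viruses. The AdGFP wells gave 7.87, 9.81, 10.72 and 9.31 in rats 1 to 4, a range of 2.85 log2 units, and the AdHIF1a wells gave 7.31, 7.79, 9.32 and 7.45 (probe set 17806504). Rat 3 was highest and rat 1 lowest under both viruses, and the groups overlapped. The means were 9.43 ± 1.19 and 7.97 ± 0.92 (SD). Within rats the signal was lower in 4 of 4, with differences of -0.56, -2.02, -1.40 and -1.86 in rats 1 to 4, and the mean difference of -1.46 ± 0.25 is 2.75-fold (1.78 to 4.25, limma adjusted p = 0.0207). The call rests on comparing wells of the same rat, since without the block the adjusted p was 0.170 and with the rat as a random block 0.133. With rat 2 left out the difference was -1.27 (adjusted p = 0.0873), with rat 3 left out -1.48 (0.0811) and with rat 4 left out -1.33 (0.103), so the call was lost each time.

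**Figure D2:**
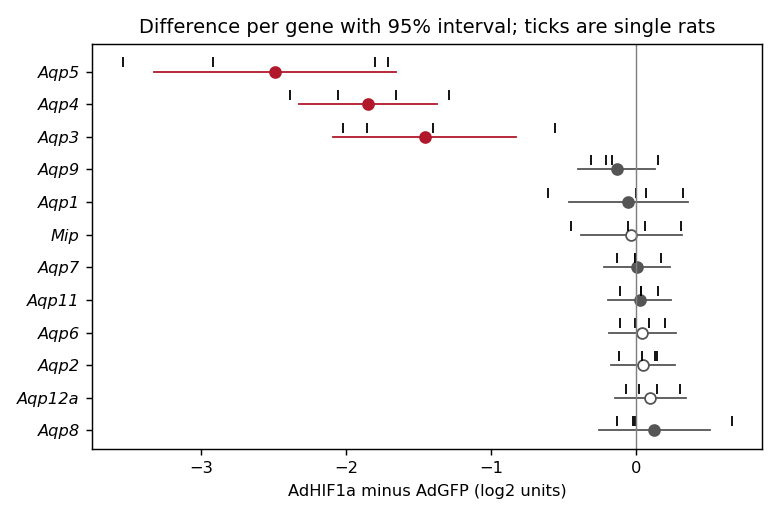
The difference AdHIF1a minus AdGFP in log2 units (horizontal axis) is drawn for each of the 8 aquaporins (filled circles) and for Aqp2, Aqp6, Aqp12a and Mip (open circles), with the 95% interval as a line and the 4 single rats as ticks; red marks genes called lower. Aqp5, Aqp4 and Aqp3 stand apart at -2.49, -1.85 and -1.46, and the intervals of the other genes include 0.

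Aqp1, the water channel of endothelium and red blood cells, gave 5.55, 5.69, 5.69 and 5.96 with AdGFP in rats 1 to 4 and 5.87, 5.69, 5.76 and 5.35 with AdHIF1a (probe set 17783767). It was higher with AdHIF1a in 2 rats, lower in 1 and equal in 1, and the groups overlapped. The means were 5.72 ± 0.17 and 5.67 ± 0.22 (SD), with a difference of -0.06 ± 0.16 (limma adjusted p = 0.874). The interval of the ratio AdHIF1a over AdGFP ran from 0.725 to 1.28. All 8 wells were above the olfactory receptor level, but by at most 1.10 log2 units, so a change could be compressed by the nearness of the floor.

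The other 2 aquaglyceroporins were near the floor. Aqp7, known from fat cells, gave 3.25 to 3.35 in the AdGFP wells and 3.22 to 3.48 in the AdHIF1a wells (difference 0.01 ± 0.09, probe set 17806495). Aqp9, known from liver and white blood cells, gave 4.08 to 4.28 and 3.97 to 4.23 (-0.14 ± 0.11, probe set 17853855), lower in 3 of 4 rats. Both genes overlapped between the groups, with limma adjusted p = 0.980 and 0.491. None of their 8 wells exceeded 4.86.

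Aqp8, a water channel that also passes ammonia and hydrogen peroxide, gave 3.47 to 3.95 in the AdGFP wells and 3.52 to 4.13 in the AdHIF1a wells (difference 0.13 ± 0.15, limma adjusted p = 0.670, probe set 17620502). The difference was 0.66 in rat 1 and -0.13 to -0.01 in the other rats. Aqp11 gave 3.78 to 4.10 and 3.81 to 4.12 (0.03 ± 0.09, adjusted p = 0.892, probe set 17635008). Neither gene exceeded 4.86 in any well. Near the floor a fold is compressed, so these values do not show that the 4 genes keep their level.

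The remaining aquaporins with a probe set of their own were at the same low level. Aqp2 and Aqp6, channels of the kidney, Aqp12a, of the pancreas, and Mip, of the eye lens, had means of 4.08 to 4.40 in the AdGFP wells and 4.17 to 4.42 in the AdHIF1a wells. None of the 4 was called (limma adjusted p from 0.591 to 0.906), and 0 had an unadjusted p under 0.05. In the rat reference Aqp2 and Aqp6 are the nearest protein-coding genes on the 2 sides of Aqp5, and Aqp7 lies next to Aqp3. Of these neighbouring aquaporins, Aqp5 and Aqp3 gave a signal above the olfactory receptor level in every well and Aqp2, Aqp6 and Aqp7 had means below it in both groups.

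Because Aqp5 is a marker of type I cells, the other type I markers were read beside it. Of 14 measured, 10 were lower and 0 higher in the AdHIF1a wells, with a median of -0.74, and 14 were lower and 0 higher at an unadjusted p under 0.05 in limma. They included Akap5, which anchors protein kinase A (-2.54 ± 0.27), Pdpn, the membrane glycoprotein podoplanin (-1.44 ± 0.18), the receptor gene Ager (-1.08 ± 0.15) and the membrane protein gene Emp2 (-0.96 ± 0.16). The list medians in rats 1 to 4 were -0.55, -1.12, -0.46 and -1.03, against -1.80, -2.92, -1.71 and -3.54 for Aqp5, so rats 2 and 4 had the larger falls in both. The fall of Aqp5 was larger than the list median in each rat. Akap5 fell further than Aqp5 in rats 1 to 3 (-1.83, -3.28 and -2.07) and less in rat 4 (-2.97). The list's summed signal was 14.78 to 15.11 log2 units in the AdGFP wells and 14.02 to 14.40 in the AdHIF1a wells, and the count of lower markers was 1 without rat 2, 2 without rat 4, 5 without rat 3 and 7 without rat 1. Fewer cells in a type I state and less of each RNA per cell cannot be told apart in RNA from whole wells.

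**Figure D3:**
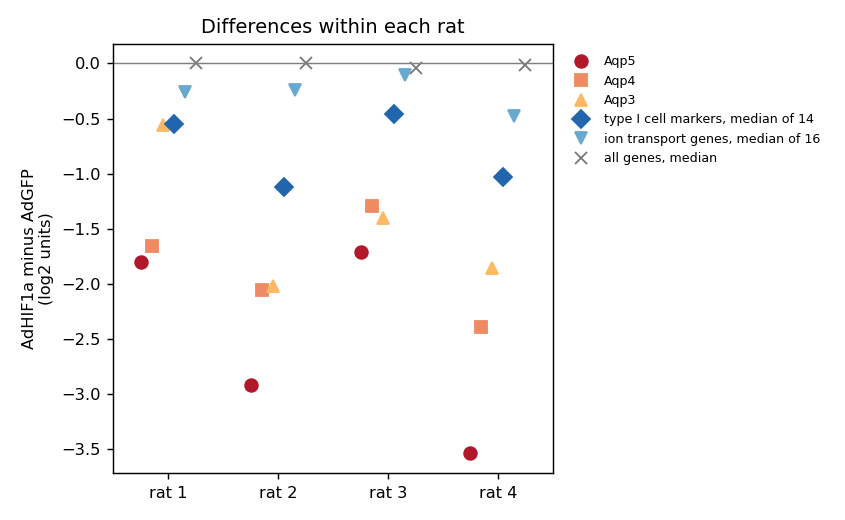
For each rat the plot gives the difference AdHIF1a minus AdGFP in log2 units (vertical axis) for Aqp5, Aqp4 and Aqp3 and the median over type I cell markers, alveolar ion transport genes and all genes. Rats 2 and 4 have the larger falls of Aqp5 (-2.92 and -3.54), of Aqp4 (-2.06 and -2.39) and of the type I markers (-1.12 and -1.03). The ion transport genes have another order, with medians of -0.255, -0.24, -0.105 and -0.48 in rats 1 to 4.

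The salt transport that draws water across the alveolar wall was not measured itself. Of 16 genes that take part in it, the RNA of 6 fell and of 0 rose (median -0.22). Scnn1a, the pore-forming alpha subunit of the epithelial sodium channel, went from 11.43 to 10.07 (-1.36 ± 0.11, limma adjusted p = 0.00329), and its beta and gamma partners Scnn1b and Scnn1g fell by 0.82 ± 0.14 and 0.73 ± 0.13. Slc26a9, a chloride channel, fell by 1.20 ± 0.13 and Cftr, the cystic fibrosis chloride channel, by 0.55 ± 0.11. Nedd4l, a ubiquitin ligase that removes the sodium channel from the membrane, fell by 0.54 ± 0.08. The sodium pump subunit genes Atp1b1 (-0.09 ± 0.08, from 12.18) and Atp1b3 (-0.06 ± 0.12) were not called, nor was the sodium-potassium-chloride carrier gene Slc12a2 (-0.10 ± 0.08). The count of lower genes was 5 without rat 1, when 1 gene was also higher, and 2 without rat 2, 3 or 4. It was 5 without the block or with the rat as a random block, where Cftr was not called (limma adjusted p = 0.253 and 0.206). Scnn1g is also among the type I markers.

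**Figure D4:**
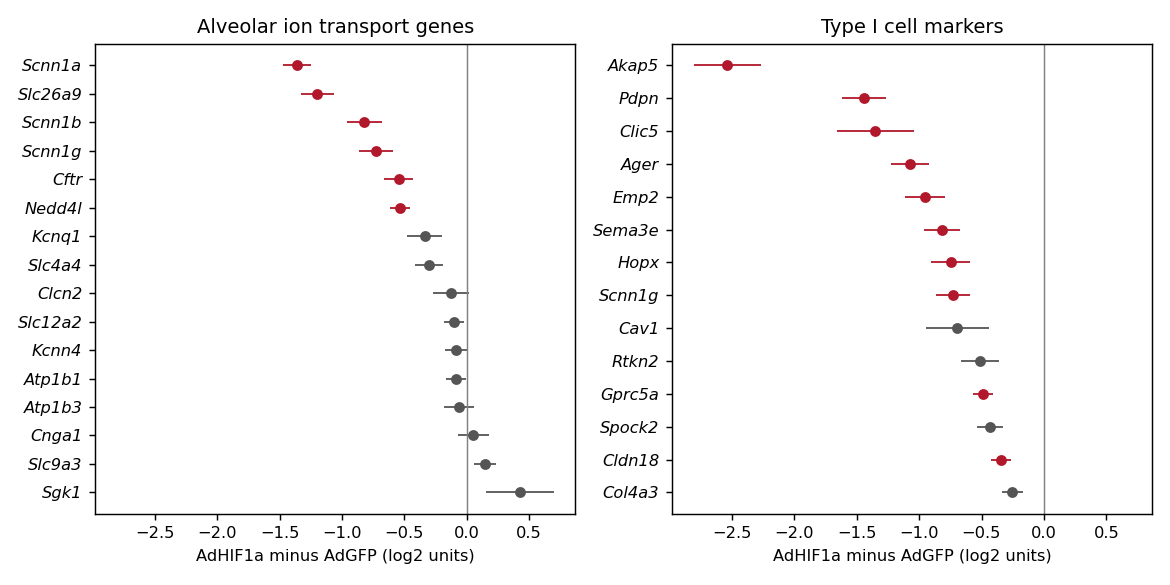
The difference AdHIF1a minus AdGFP in log2 units with its SE (horizontal axis) is shown for 16 alveolar ion transport genes (left) and 14 type I cell markers (right), with red for genes called lower. Scnn1a is lowest on the left at -1.36 and Akap5 on the right at -2.54, and no gene in either panel was called higher.

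Genes of the response to cell volume and osmotic strength showed 3 of 13 lower and 0 higher (median -0.21). These were Slc12a7 and Slc12a4, potassium-chloride carriers that help swollen cells shrink (-0.84 ± 0.12 and -0.60 ± 0.10), and Lrrc8c, a subunit of the volume-regulated anion channel (-0.96 ± 0.17). The main anion channel subunit gene Lrrc8a differed by 0.01 ± 0.09, Nfat5, the transcription factor of the response to hypertonic medium, by -0.21 ± 0.10, and Trpv4, a cation channel opened by swelling, by -0.57 ± 0.15, none of them called. The 3 calls were lost without rat 2 or rat 4, and the count was 2 without rat 1 or rat 3 and 5 without the block or with a random block.

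Glycerol is carried by Aqp3, Aqp7 and Aqp9, and of 13 genes of glycerol and lipid breakdown 3 rose and 1 fell (median -0.18). Gpam, which starts glycerolipid synthesis (0.79 ± 0.11), the lipid droplet coat gene Plin2 (0.80 ± 0.11) and G0s2, an inhibitor of the lipase encoded by Pnpla2 (0.55 ± 0.11), rose, and Pnpla2 itself fell (-0.63 ± 0.09). The glycerol kinase gene Gk was not called (-0.18 ± 0.13). Without rat 4 no gene of this list was called, and without rat 2 only 1 was, in the higher direction.

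Hydrogen peroxide passes through Aqp3 and Aqp8, and of 17 genes that make or remove it 1 rose and 1 fell (median -0.02). Over all genes 5.68% were higher and 7.77% lower. Duox2, an oxidase that releases hydrogen peroxide at the cell surface, rose from 5.42 to 9.62 (4.19 ± 0.23, limma adjusted p = 0.00127). Gpx1, a glutathione peroxidase, fell by 0.50 ± 0.11 (adjusted p = 0.0425). The count of lower genes was 0 without rat 2, 3 or 4 or with each array centred on its median, and 3 without rat 1. It was 2 without the block or with a random block. Those 2 were Gpx4 and Prdx4, and Gpx1 was not called there (limma adjusted p = 0.0772 and 0.0585). Duox1 was not called (-0.02 ± 0.15).

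In muscle and brain Aqp4 is held at the membrane by the dystrophin complex. Of 10 measured genes of this complex and its partners, 4 fell and 2 rose (median -0.19). Sgcd, which encodes delta-sarcoglycan, fell by 2.56 ± 0.26, Dag1, the membrane receptor dystroglycan, by 0.63 ± 0.10, Utrn, the relative of dystrophin, by 0.83 ± 0.17 and the syntrophin gene Sntb2 by 0.69 ± 0.15. A second syntrophin gene, Sntb1, rose by 0.70 ± 0.09 and the dystrobrevin gene Dtnb by 0.46 ± 0.09. Utrn and Sntb2 were named in addition, after their values were seen, so that all called genes of the list are given. The count of lower genes was 4 without rat 1, 2 without rat 3 and 1 without rat 2 or rat 4, and that of higher genes 1 without rat 1 or rat 3 and 0 without rat 2 or rat 4.

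Markers of the labelled cell type were read, and beside them those of the other cells in which these channels are known. The 11 ATII markers all gave a signal above the olfactory receptor level, with Sftpc at 12.34 and 12.62 in the 2 groups. That does not verify the label, since markers of other cells were also high. In the AdGFP wells the type I marker Ager was at 12.55, the macrophage gene Lyz2 at 12.59 and the airway gene Scgb1a1 at 12.65. The median difference of the ATII markers was -0.44, and -0.31, -0.48, -0.43 and -0.49 in rats 1 to 4. Rats 2 and 4 again had the larger falls of these markers, though rat 3 was close. At an unadjusted p under 0.05 in limma 3 were higher and 7 lower. By adjusted p 2 rose and 5 fell (summed signal 14.60 to 14.93 and 14.45 to 14.82 log2 units). Rises were those of the surfactant protein genes Sftpa1 (0.89 ± 0.10) and Sftpb (0.69 ± 0.11), and among the falls were those of Napsa (-1.52 ± 0.18) and Lamp3 (-0.78 ± 0.13), with 1 marker lower without rat 2, 3 or 4 and 4 without rat 1. Of the rises, 1 was left without rat 2, 3 or 4, without the block or with a random block, where Sftpb was not called (limma adjusted p = 0.128 and 0.0968). For airway epithelium, 0 of 8 markers were called in limma, with 1 higher and 2 lower at an unadjusted p under 0.05 (summed signal 12.62 to 12.76 and 12.48 to 12.85), the secretory gene Scgb1a1 was high in both groups (12.65 and 12.68), and the basal cell genes Tp63 and Krt14 had means of 4.40 to 5.17. The smallest p-values of that list were those of Bpifa1, a secreted airway protein (0.50 ± 0.13, limma adjusted p = 0.0619), and Sec14l3 (-1.16 ± 0.32, 0.0737). Sec14l3 was called lower without the block and with a random block (limma adjusted p = 0.0464 and 0.0381). Without rat 1 the list had 1 marker called higher. For endothelium, 5 of 7 markers were below the olfactory receptor level in both groups, Cdh5 was at 5.18 and 5.41, and 1 rose, Plvap (1.27 ± 0.13, summed signal of the list 7.26 to 7.42 and 7.65 to 7.79). The 4 measured red blood cell markers lay below that level (summed signal 5.84 to 6.16 and 5.89 to 6.04), and none was called or had an unadjusted p under 0.05, with the globin gene Hba-a1 at 0.15 ± 0.08 (limma adjusted p = 0.285) and the anion exchanger gene Slc4a1 at -0.07 ± 0.10 (0.740).

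Of the white blood cell markers, read beside Aqp9, 2 of 10 macrophage genes fell, Fcgr1a (-0.59 ± 0.09) and Adgre1 (-0.54 ± 0.12), with 6 lower and 1 higher at an unadjusted p under 0.05 and a median of -0.36. Adgre1 was below the olfactory receptor level in both groups, with means of 4.37 and 3.83. Neither Fcgr1a nor Adgre1 was called without rat 2, without rat 4, without the block or with a random block. The summed signal was 12.69 to 13.01 and 12.92 to 13.17, and its largest term was Lyz2, a lysozyme gene (12.59 and 12.88, 0.30 ± 0.10, limma adjusted p = 0.135). Of 8 neutrophil genes 7 were below the olfactory receptor level in both groups and 1 of these was lower, S100a9 (-0.59 ± 0.10; summed signal 6.98 to 7.11 and 6.91 to 7.05), a call that was lost without rat 2, 3 or 4. For fibroblasts and smooth muscle 1 of 9 fell, Tagln, an actin-binding protein (-2.35 ± 0.23), and the summed signal was 9.80 to 10.60 in the AdGFP wells and 8.57 to 8.87 in the AdHIF1a wells. The other 8 markers of that list were not called and differed by -0.17 to 0.16, both ways. The part of these cells in the aquaporin differences was not tested.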

How the data were processed

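Signals of 36685 probe sets on 8 arrays were deposited as log2 values, made by the authors with Affymetrix Expression Console per the submitters' processing notes. Algorithm, version and build are not stated there, and the scale follows from the range of the values. A common scale hides a general shift of all transcripts, and low signals are compressed. Of the probe sets, 18511 carried 1 gene symbol, 575 several and 17599 none. The probe set with the highest mean stood for a gene, which left 18166 genes, and all 8 aquaporins matched the rat reference (GRCr8) by gene identifier.

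All probe sets were fitted with limma 3.58.1 in R 4.3.3 (lmFit, eBayes, no filter), with rat as a fixed block. Two-sided p-values were adjusted over the genes. The variance prior came from all 36685 probe sets. The block comes from the series' design. Deviations from group means correlated across genes at 0.177 to 0.265 between wells of a rat and at -0.22 to 0.0766 between rats. Such deviations cancel within a group, so positive values within rats push those between rats towards negative ones. Part of the contrast is therefore built in. An exact sign-flip test on 4 pairs cannot give a p under 0.125, so it was not used for calls. Precision is limited by having 4 arrays per group. The members and 14 gene lists (165 entries, 144 measured) were chosen with earlier results of these data known. The count of each list is to be read beside the shares over all genes, 5.68% higher and 7.77% lower, and no list was tested as a set. Named were the members, the other aquaporins, in each list the 4 called genes with the smallest adjusted p (or the 2 with the smallest p where none was called), and for each called member the 3 genes with the highest Pearson r. Others were named after their values were seen. Alternatives are given at the end.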

Additional observations from a re-analysis of the deposited data

Results flagged for a closer look

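In 24 sets of 4 values (8 aquaporins, each in AdGFP wells, AdHIF1a wells and differences within rats), 2 had 1 rat far from the other 3, and about 1 in 20 such sets would by chance. The Aqp8 difference in rat 1 was 0.66, against -0.13 to -0.01 in rats 2 to 4, so its mean of 0.13 comes from that rat. The Aqp9 signal in the AdGFP well of rat 4 was 4.08, against 4.25 to 4.28 in the other AdGFP wells. Both genes lay near the floor of the array and neither was called.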

How the results depend on the processing

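Under all settings run, 0 aquaporins were called higher. The count of lower aquaporins was 3, and 1 at an adjusted p under 0.01 (Aqp4), where the share of all genes called lower went from 7.77% to 1.69%. It was 1 to 3 when 1 rat was left out, with Aqp4 alone called without rat 2, where 1.35% of all genes were lower. The paired fit gave 3 lower genes and the fit with no replicate block 2, as did the random replicate block, with Aqp3 the gene lost (adjusted p = 0.170 and 0.133). Quantile normalization, median centring, array weights, both filters on dim probe sets, a trended and robust prior, the mean of all probe sets, every probe set tested separately and a minimum of 1.5-fold each gave 3. A variance prior from the named genes alone, chosen after seeing the data, also gave 3 and raised the share of all genes called lower to 11.5%. Aqp3, Aqp4 and Aqp5 kept their sign in all 15 fits that gave each a value, at -1.76 to -1.27, -2.04 to -1.67 and -2.75 to -2.14. Aqp1 changed sign in 1 of its 15 fits, Aqp7 in 4 of 13, Aqp8 in 1 of 14 and Aqp11 in 3 of 14, none called. The filter at the median removed Aqp7, Aqp8, Aqp9 and Aqp11, and that at the lower quartile removed Aqp7. Signals near the floor limit what can be said of these genes.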

Other observations

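The genes whose signal followed each called aquaporin most closely over the 8 arrays, by Pearson's r, are given as a description with no p, since the arrays share rats and, for Aqp4 and Aqp5, the 2 viruses lie apart. For Aqp5 these were Fam110b (r = 0.996), the protocadherin gene Pcdhb19 (0.994) and Focad (0.993). For Aqp4 they were Phactr1 (0.998), Fam110b (0.997) and Ror1, a receptor tyrosine kinase-like gene (0.996). These 5 genes were lower with AdHIF1a, with differences from -2.39 to -0.96. For Aqp3 they were Bmpr1b, a receptor of bone morphogenetic proteins (0.977), Rpn1, a subunit of the glycosylation machinery (0.977), and the mitochondrial protease gene Pitrm1 (0.974), and 0 of these 3 were called (limma adjusted p = 0.0575, 0.202 and 0.683).

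The nearest protein-coding neighbour of Aqp3 on its other side, Nol6, a nucleolar protein gene, was higher with AdHIF1a (0.45 ± 0.09, limma adjusted p = 0.0289), while Aqp3 was lower and Aqp7 near the floor. Of the neighbours of Aqp2 and Aqp6 beyond the Aqp2, Aqp5 and Aqp6 group, Faim2 differed by -0.42 and Racgap1, a gene of cell division, by -0.85, and neither was called (adjusted p = 0.0613 and 0.0688).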
